A study of Homo sapiens with 4 samples.

Results

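The genes described here are 9 that take part in the recognition of double-stranded RNA: the helicase sensors DDX58, IFIH1 and DHX58, the endosomal receptor TLR3, the adaptor MAVS, the kinase EIF2AK2, and the oligoadenylate synthetases OAS1, OAS2 and OAS3. They are a list of gene names, with no threshold on a measured value, and are 9 of the 23217 gene symbols of the deposited table, with 20 of its 44578 transcript rows. RNA was sequenced from LV-M100 cells, a clonal subpopulation with low cell-to-cell variability that was derived from MDA-MB-231, a human breast cancer line. In the siControl group, replicate 1 received the NC1 control siRNA and replicate 2 the BLOCK-iT Fluorescent Oligo, and in the siSNRNP40 group each replicate received a different siRNA against SNRNP40, a gene for a component of the splicing machinery, in its U5 particle. Lipofectamine was the carrier in all 4 samples, RNA was taken 48 h after transfection, and no untransfected sample was analysed here. LV-M100 is 1 clone, and every sample, controls included, was transfected with a short synthetic oligonucleotide.

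The table gives 1 pooled value per transcript for each condition, in FPKM (fragments scaled for transcript length and for the total of mapped fragments), with 2 libraries behind each value. No value has a replicate error, no difference was tested here, the authors' own p-values were not used, and the depth is unknown. The FPKM of all transcripts summed to 516056 in siControl and 517152 in siSNRNP40. A gene's level below is the sum of its transcripts' FPKM, and its log2 ratio is siSNRNP40 over siControl. In bulk RNA, more cells that express a gene and more RNA per cell cannot be told apart. SNRNP40, the targeted gene, was at 40.4 FPKM in siControl and 6.12 FPKM in siSNRNP40, a log2 ratio of -2.72. Genes that MDA-MB-231 is known to express strongly were high in both conditions, with VIM at 750 and 733 FPKM and CD44 at 116 and 141 FPKM (siControl and siSNRNP40), AXL at 125 and 115 FPKM and CAV1 at 285 and 198 FPKM. ESR1, PGR and CDH1, which the line lacks, were all below 0.1 FPKM. Of 5 blood cell genes, PTPRC and MS4A1 were listed at 0 in both conditions, CD3E and CD14 were below 0.5 FPKM, and LYZ was at 8.46 FPKM in siControl and 10.2 FPKM in siSNRNP40.

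Cells read long or unusual RNA duplexes as a sign of viral infection. DDX58 (the protein RIG-I) and IFIH1 (MDA5) bind such RNA in the cytosol and pass the signal to MAVS on mitochondria, which leads to type I interferon, while DHX58 (LGP2) is a relative that lacks the signalling domains and tunes the other two. TLR3 meets double-stranded RNA in endosomes. EIF2AK2 (PKR) and the oligoadenylate synthetases act on the cell's own machinery: PKR phosphorylates the translation factor eIF2 alpha, and the synthetases make a short adenylate chain that serves as an antiviral signal. Most of these genes are themselves switched on by interferon, through response elements in their promoters.

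Because all samples received short RNA or oligonucleotide duplexes, the 2 siSNRNP40 sequences are shown first, as the labels give them and in lower case since no base is singled out. They have 18 bases each, with a GC content of 33.3% for replicate 1 and 44.4% for replicate 2. The control sequences are not analysed here.
siSNRNP40 replicate 1: ggaauagacaaugauauc
siSNRNP40 replicate 2: ggauuugaccgacugaua

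The promoters of 7 members were found in the RefSeq promoter table (GRCh38.p14), and those of OAS2 and DHX58 were not among its entries. The 250 bases before each start matched the GRCh37 genome exactly once. The 4 shown are those of IFIH1, whose ratio was the highest of the 9 members, of DDX58, the most abundant member, and of OAS1 and OAS3, neighbours in 1 cluster. Each is given 5′ to 3′ on the gene's strand with GRCh37 coordinates, and capitals mark every match, on either strand, to the core of the interferon-stimulated response element, GAAANNGAAA, or to its shorter part AANNGAAA, which every match to the longer motif contains.
IFIH1, chr2:163175195-163175444, minus strand: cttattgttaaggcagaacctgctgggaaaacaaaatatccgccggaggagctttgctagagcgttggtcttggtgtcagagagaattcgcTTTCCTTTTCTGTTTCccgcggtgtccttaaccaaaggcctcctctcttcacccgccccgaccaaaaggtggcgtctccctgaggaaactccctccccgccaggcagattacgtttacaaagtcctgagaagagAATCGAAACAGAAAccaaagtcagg
DDX58, chr9:32526323-32526444, minus strand: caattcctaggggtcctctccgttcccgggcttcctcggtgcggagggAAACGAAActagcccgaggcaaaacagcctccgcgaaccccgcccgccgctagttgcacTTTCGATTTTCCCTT
OAS1, chr12:113344517-113344766, plus strand: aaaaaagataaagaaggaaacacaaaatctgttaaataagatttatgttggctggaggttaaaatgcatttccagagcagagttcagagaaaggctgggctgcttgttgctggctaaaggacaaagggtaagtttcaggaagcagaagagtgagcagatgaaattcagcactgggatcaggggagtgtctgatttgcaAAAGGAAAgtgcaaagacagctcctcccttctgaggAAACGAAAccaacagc
OAS3, chr12:113376029-113376278, plus strand: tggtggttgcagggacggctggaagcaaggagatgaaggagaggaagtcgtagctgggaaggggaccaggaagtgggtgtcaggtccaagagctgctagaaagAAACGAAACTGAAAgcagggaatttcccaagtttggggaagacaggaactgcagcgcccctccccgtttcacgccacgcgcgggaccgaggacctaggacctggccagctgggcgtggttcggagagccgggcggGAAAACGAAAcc

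The DDX58 stretch is the 122 bases that lie before the gene's listed start. Over the whole 300-base promoters (250 bases before and 50 after the start), GAAANNGAAA was present for 4 of the 7 members (IFIH1, OAS3, TLR3 and EIF2AK2), against 3.57% of 35116 promoters (1255). The shorter AANNGAAA, chosen after the sequences had been seen, was present for 6 of the 7, all but MAVS, against 22.8% of promoters (8018). The matches are letters in a window, and binding was not measured. Before the RefSeq start, IFIH1 had 3 matches to the longer motif, overlapping ones counted separately, and OAS3 had 2. TLR3 and EIF2AK2 had 0 there, as the match of each reached past the start. OAS1 and DDX58 had matches to the shorter motif only. The last 30 printed bases of OAS3 and the last 28 of OAS1 lie inside the gene as listed, and hold the last marked match of each.

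The 9 genes covered a wide range of levels in siControl. DDX58 was the most abundant, followed by EIF2AK2, MAVS, OAS2 and IFIH1, and then DHX58, TLR3, OAS3 and OAS1. All 9 passed the filter of a mean of at least 1 FPKM over both conditions, as did 12334 genes in all. In siSNRNP40 IFIH1 stood in the third place instead of the fifth, followed by OAS2 and then MAVS, and the other genes kept their places. With no replicate spread, neighbours in this order cannot be ranked beyond their pooled values.

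**Figure D1:**
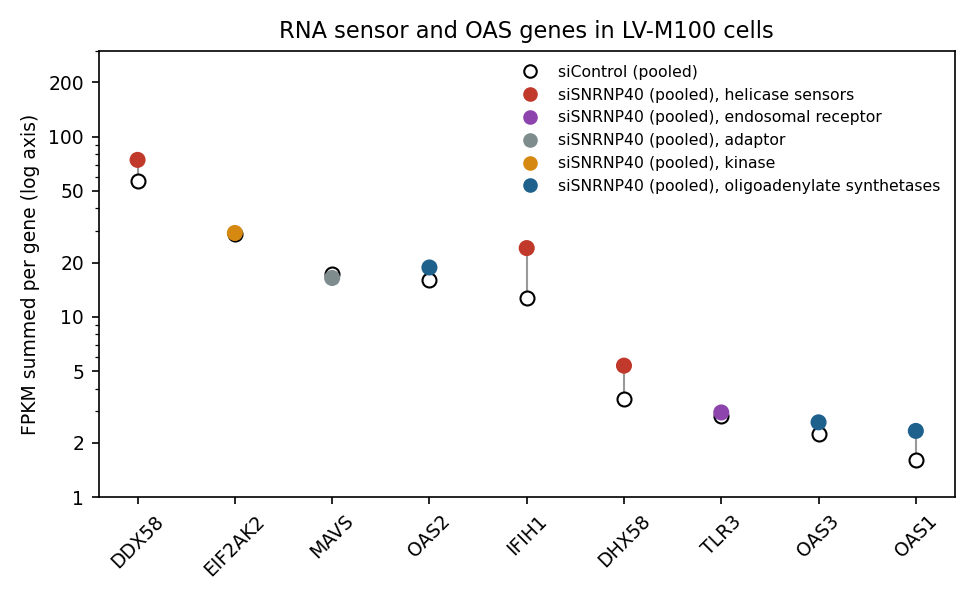
Summed FPKM (log axis) of the 9 genes in LV-M100 cells, ordered by the siControl level. Open circles are siControl and filled circles siSNRNP40, coloured by role, each 1 pooled value without an error bar. IFIH1 has the widest gap, from 12.8 to 24.1 FPKM, and MAVS is the only gene whose filled circle lies below the open one.

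Among the helicases, IFIH1 and DHX58 had the highest ratios of the 9 members, while that of DDX58 was below that of OAS1. IFIH1 (ENSG00000115267, chromosome 2, 163123589 to 163175039, minus strand, GRCh37, 16 exons) was at 12.8 FPKM in siControl and 24.1 FPKM in siSNRNP40, 1.88-fold higher, with a log2 ratio of 0.91. Among the 4507 genes with a mean of 5 to 20 FPKM, 29 (0.643%) had a ratio at least as high, IFIH1 included. DDX58 (ENSG00000107201, named RIGI in GENCODE 44; chromosome 9, 32455300 to 32526322, minus strand, 18 exons) was at 57.1 FPKM in siControl and 74.4 FPKM in siSNRNP40, 1.30-fold higher. That log2 ratio of 0.38 was matched or passed by 107 of the 3268 genes (3.27%) between 20 and 100 FPKM.

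DHX58 (ENSG00000108771, chromosome 17, 40253422 to 40264751, minus strand, 14 exons) was the least abundant helicase, at 3.50 FPKM in siControl and 5.36 FPKM in siSNRNP40. Its ratio was 1.53-fold, a log2 ratio of 0.62. Ratios spread more widely at such levels, and 291 of the 3775 genes (7.71%) between 1 and 5 FPKM had one as high. All 3 helicases are listed with 1 transcript row each, so no sharing of fragments between listed transcripts of the same gene enters their values.

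The receptor and the adaptor were close to equal in both conditions. TLR3 (ENSG00000164342, chromosome 4, 186990309 to 187006252, plus strand, 5 exons) was at 2.80 FPKM in siControl and 2.95 FPKM in siSNRNP40, a log2 ratio of 0.071, and 1804 of the 3775 genes at its level (47.8%) had as high a ratio. MAVS (ENSG00000088888, chromosome 20, 3827446 to 3856770, plus strand, 7 exons), through which both RIG-I and MDA5 signal, was at 17.4 FPKM in siControl and 16.4 FPKM in siSNRNP40, a log2 ratio of -0.079. MAVS was the 1 member below 0.

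EIF2AK2 (ENSG00000055332, chromosome 2, 37332284 to 37384190, minus strand, 17 exons) had the ratio nearest to 0. It was at 28.7 FPKM in siControl and 29.2 FPKM in siSNRNP40, a log2 ratio of 0.027. It was above IFIH1 in both conditions, by a smaller margin in siSNRNP40.

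The 3 synthetase genes lie side by side on chromosome 12 within 104.79 kb (113344739 to 113449528, plus strand, in the order OAS1, OAS3, OAS2), and all were higher in siSNRNP40. OAS1 (ENSG00000089127, 113344739 to 113357712, 6 exons) was at 1.60 FPKM in siControl and 2.33 FPKM in siSNRNP40, 1.45-fold higher, with a log2 ratio of 0.54. Among genes between 1 and 5 FPKM, 386 (10.2%) had as high a ratio. With a pseudocount of 1 FPKM, OAS1's log2 ratio was 0.35, under the lower limit of 0.5 used below.

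OAS3 (ENSG00000111331, 113376249 to 113411054, 16 exons), whose protein carries 3 synthetase units, was at 2.23 FPKM in siControl and 2.60 FPKM in siSNRNP40, with a log2 ratio of 0.22. OAS2 (ENSG00000111335, 113416274 to 113449528, 10 exons) was the abundant one of the cluster, at 16.0 FPKM in siControl and 18.8 FPKM in siSNRNP40, with a log2 ratio of 0.23. As high a ratio was found for 32.6% of genes at the level of OAS3 and 15.1% at that of OAS2. The OAS genes have similar sequences, so fragments in shared stretches could be assigned to more than 1 of them.

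Counted together, 8 of the 9 members were above 0 and 1 was below, while 50.5% of all genes kept were above 0. The median log2 ratio of the members was 0.23, beside 0.0034 for all 12334 genes. The members were chosen with earlier results of these data known, so these values and the counts below are a description only. No member was past a log2 ratio of 1 in either direction, where 0.811% of genes (100) were higher and 0.657% (81) lower. IFIH1, at 0.91, was the member nearest to that limit. At a limit of 0.5, 3 members were higher (IFIH1, DHX58 and OAS1) and 0 lower, beside 5.24% of genes (646) higher and 5.06% (624) lower. OAS1 at 0.54 was just past that limit and DDX58 at 0.38 was the nearest below it. The share of genes above 0.5 was 11.6% between 1 and 5 FPKM and 3.26% between 5 and 20 FPKM, so DHX58 and OAS1 stood at a level where such ratios were more frequent than at that of IFIH1.

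**Figure D2:**
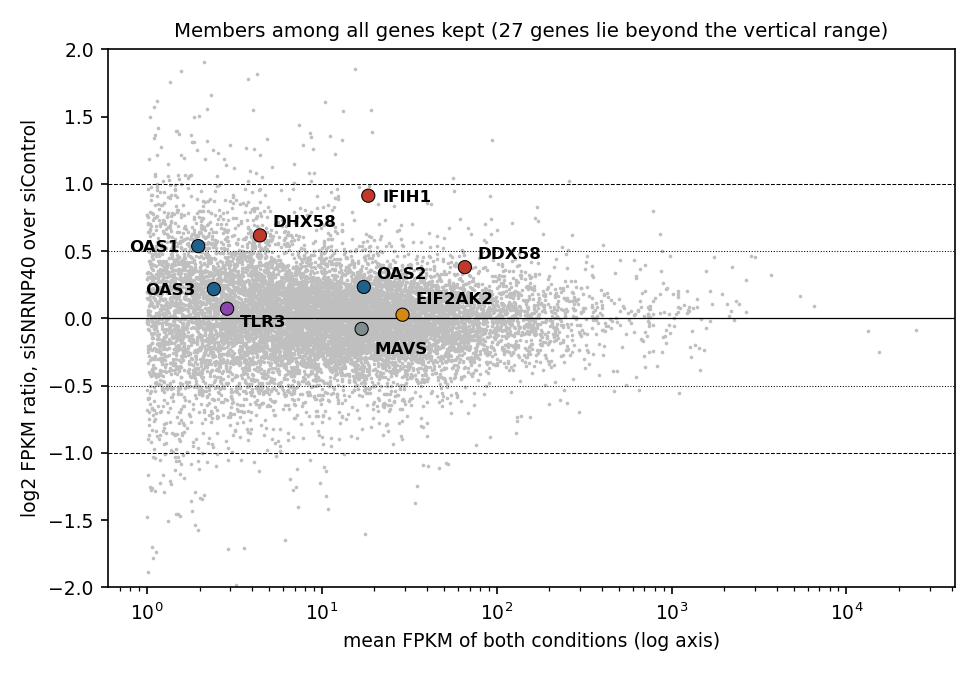
Each grey point is 1 of the genes kept, by mean FPKM of both conditions (log axis) and log2 ratio of siSNRNP40 over siControl, and 27 genes lie beyond the vertical range. Coloured points are the members (helicases red, TLR3 purple, MAVS grey, EIF2AK2 orange, OAS genes blue), and lines mark 0, 0.5 and 1 in each direction. IFIH1 sits at 0.91, DDX58 at 0.38, and MAVS, EIF2AK2 and TLR3 lie close to 0.

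At the level of single transcripts, 5 members have 1 row and 4 have several. The rows carry no transcript identifiers, so they are numbered in the order of the table and the isoforms are not named. Of the 20 rows, 5 were listed at 0 in both conditions and 1 in 1 condition only, and 11 had a mean of at least 1 FPKM and a finite ratio. Of these 11 rows, 1 was past a log2 ratio of 1, beside 10.5% of all 16691 such rows (1760). With 11 rows, this count lies near that share.

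That row was transcript 3 of OAS2, at 2.08 FPKM in siControl and 0.583 FPKM in siSNRNP40, a log2 ratio of -1.84, while the gene's sum was higher in siSNRNP40. Its share of the OAS2 sum was 13.0% in siControl and 3.10% in siSNRNP40. Transcript 2 of OAS2 was listed at 0 in siControl and at 1.45 FPKM in siSNRNP40, where it made up 7.74% of the sum. Its mean of 0.727 FPKM is below the minimum of 1 FPKM. The main transcript, number 1, kept a share of 84.9% in both conditions, at 13.6 FPKM in siControl and 16.0 FPKM in siSNRNP40.

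MAVS shares also differed between conditions. Its main transcript, number 2, was at 14.5 FPKM in siControl and 12.6 FPKM in siSNRNP40, which was 83.3% and then 76.5% of the sum. Transcript 3 of MAVS was at 0.315 FPKM in siControl and 1.09 FPKM in siSNRNP40, below the minimum mean, with shares of 1.82% and 6.64%. For OAS1 and EIF2AK2, 1 transcript held almost the whole sum in both conditions: 100% for OAS1, and 99.5% in siControl and 99.96% in siSNRNP40 for EIF2AK2. The authors' software divides fragments among overlapping transcripts by a model, and its part in these shifts was not tested.

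**Figure D3:**
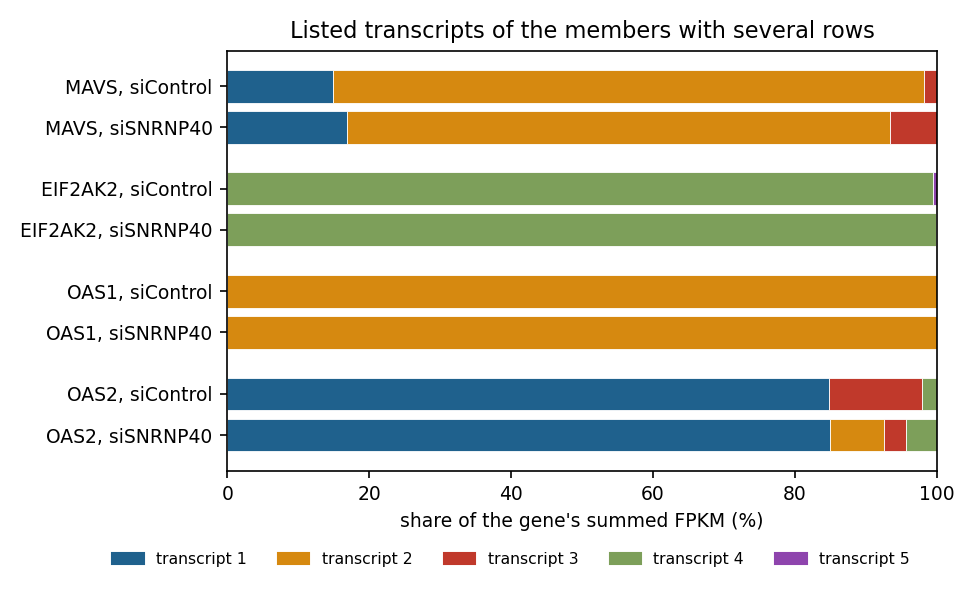
Share of each gene's summed FPKM (%) taken by each listed transcript, for the 4 members with several rows, in siControl and siSNRNP40 (1 pooled value each). The main OAS2 transcript stays at 84.9% while transcript 3 goes from 13.0% to 3.10%, and the main MAVS transcript goes from 83.3% to 76.5%.

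Other genes of the response and of related routes were taken from 6 lists with 38 genes, of which 33 passed the filter. Among the 33, 10 were higher by more than 0.5 on the log2 scale, 0 were lower and 23 lay within that limit, with a median of 0.15. Of all 12334 genes kept, 5.24% were higher by that much and 5.06% lower. Between 1 and 5 FPKM, where several of the 10 lie, 11.6% were higher. The lists were chosen with earlier results of these data known, so these counts are a description only. Adaptors and kinases that carry the signal to the interferon genes had a median log2 ratio of 0.067 over 8 genes. TMEM173 (STING, the adaptor of the DNA-sensing route) was the 1 of them past 0.5, at 2.41 FPKM in siControl and 5.77 FPKM in siSNRNP40, 2.40-fold higher. The kinase TBK1 was at 33.0 and 31.1 FPKM in siControl and siSNRNP40, and its partner TANK at 48.2 and 49.8 FPKM.

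The regulators, most of which add or remove ubiquitin, had a median log2 ratio of 0.24 over 6 genes. TNFAIP3 (A20, a brake on NF-kappaB signalling) was the 1 past 0.5, at 1.98 FPKM in siControl and 3.64 FPKM in siSNRNP40. TRIM25, a ubiquitin ligase of the RIG-I route, was at 12.9 and 10.8 FPKM, a log2 ratio of -0.26, and the deubiquitinase CYLD at 11.2 and 12.5 FPKM.

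Of the genes listed around the synthetases, 1 was past 0.5. This was OASL, a relative of the OAS genes without synthetase activity, which was at 6.12 FPKM in siControl and 10.4 FPKM in siSNRNP40, a log2 ratio of 0.77. ABCE1, a ribosome recycling factor, was at 93.5 and 100.1 FPKM, and PDE12, which degrades the OAS product, at 22.1 and 19.9 FPKM.

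None of the 5 genes around PKR was past 0.5, and their median log2 ratio was -0.039. EIF2S1, which encodes the PKR substrate eIF2 alpha, was at 68.2 FPKM in siControl and 64.3 FPKM in siSNRNP40, and the RNA-editing enzyme gene ADAR at 28.7 and 27.0 FPKM. Of the 3 genes kept that handle or sense small RNA, the receptor gene TLR7 was past 0.5, at 1.25 FPKM in siControl and 1.89 FPKM in siSNRNP40. DICER1 was at 28.1 and 22.3 FPKM, and EIF2C2, which encodes Argonaute 2, at 13.3 and 14.4 FPKM.

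The genes that the response is known to induce had the highest median, 0.74 over the 7 kept. Of these 7, 6 were higher by more than 0.5, beside 5.24% of all genes kept. The chemokine gene CXCL10 had the highest ratio, at 1.89 FPKM in siControl and 6.67 FPKM in siSNRNP40, a log2 ratio of 1.82. ISG15, a ubiquitin-like modifier, was at 122.2 and 216.9 FPKM, IFIT3 at 123.6 and 206.7 FPKM, and IFIT1, which binds foreign RNA ends, at 93.1 and 152.5 FPKM. The cytokine gene IL6 was at 8.47 FPKM in siControl and 15.1 FPKM in siSNRNP40, and the chemokine gene CCL5 at 17.1 and 25.7 FPKM. The interferon genes IFNB1 and IL28A were listed at 0 in both conditions, and IL29 was at 0.0694 FPKM in siControl and listed at 0 in siSNRNP40.

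**Figure D4:**
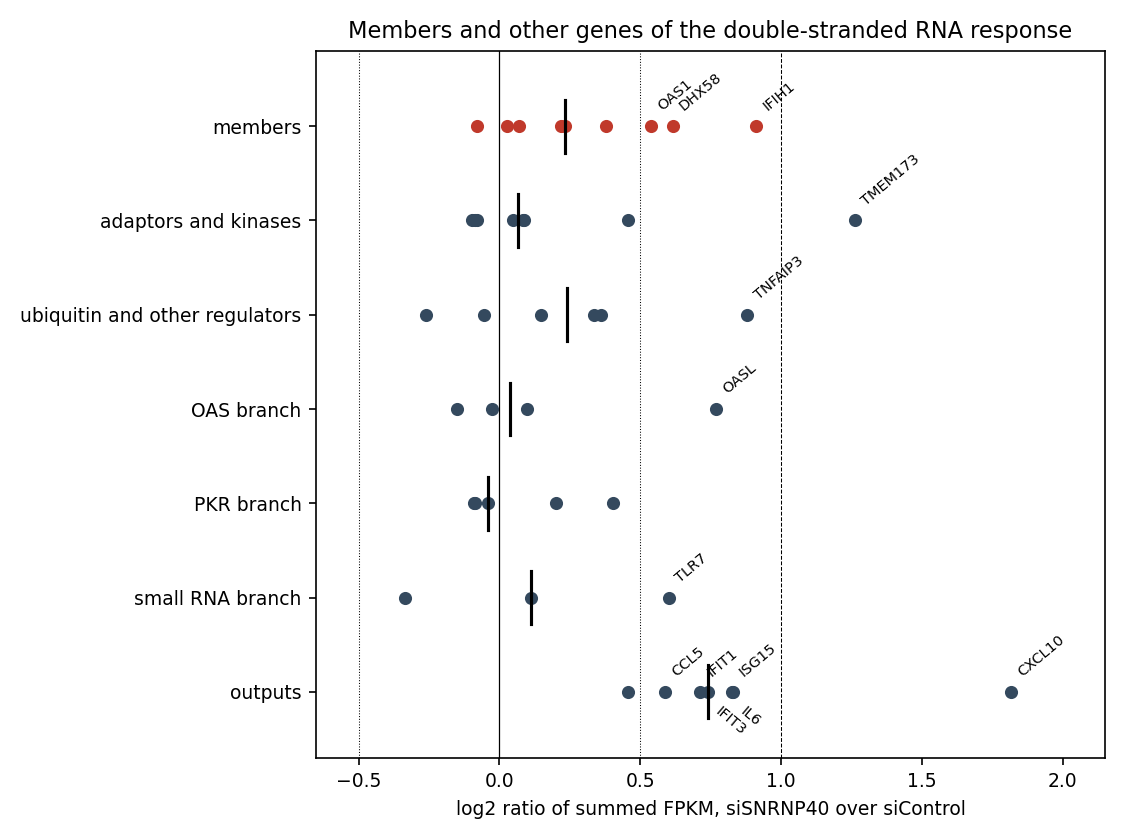
Log2 ratio of summed FPKM, siSNRNP40 over siControl, for the 9 members (red) and the 33 other genes kept, by list, with a bar at each list's median and lines at 0, 0.5 and 1 (the dotted line on the left is -0.5). Genes past 0.5 are named. The outputs list, of genes that the response is known to induce, has a median of 0.74, and the PKR branch of -0.039.

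Genes close to the members on the chromosome were also examined. By the listed positions, 39 other genes lie within 100 kb of a member, none of which overlaps one, and 24 passed the filter. Some are listed at the same distance, such as CNP and DNAJC7 at 63378 bases from DHX58, so their own distances may differ. The median log2 ratio of these 24 was -0.040, with a range from -0.60 to 0.33. By more than 0.5, 0 were higher and 1 was lower, beside 5.24% and 5.06% of all genes kept. With 24 genes, these counts lie near those shares. The lowest, chosen after its value was seen, was PRKD3 near EIF2AK2, at 38.4 FPKM in siControl and 25.4 FPKM in siSNRNP40. KAT2A, the nearest gene at 378 bases from DHX58, was at 3.08 and 3.18 FPKM. GCA, near IFIH1, was at 9.52 and 8.44 FPKM.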

How the data were processed

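RNA of 4 LV-M100 libraries, 2 per condition, was depleted of ribosomal RNA (Ribo-Zero Gold), made into libraries with ScriptSeq v2 and sequenced on an Illumina HiSeq. Reads were cleaned by the authors with cutadapt 1.2.1 and aligned to hg19 with TopHat 2.0.8. Transcripts were assembled and compared with Cufflinks and Cuffdiff 2.0.2. The deposited FPKM values are per transcript and were averaged by the authors over the 2 libraries of a condition, so tests planned on values per library were not run. The table's other columns hold the authors' own fold changes, p-values and q-values, which were not used.

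FPKM were summed over the rows of a gene symbol, genes with a mean of at least 1 FPKM and a finite ratio were kept, and log2 ratios were taken without a pseudocount. Limits of 1 (the study's own) and 0.5 were applied. Exons, identifiers and strands come from GENCODE 44 on GRCh37, and gene positions are those of the table. Python 3.11.15 with numpy 2.4.6 and pandas 2.3.3 was used, and the computation was tested on simulated data. The genes named are the 9 members, SNRNP40, marker genes, the genes of each list past 0.5 and its most expressed genes. Other genes are named where said. The members and lists were chosen with earlier results of these data known. Alternatives changed the pseudocount, the filter, the scaling and the summing. A value for 1 gene of the lists is not reported here.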

Additional observations from a re-analysis of the deposited data

How the results depend on the processing

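No member was past a log2 ratio of 1 under any alternative run: a pseudocount of 1, no filter, a minimum mean of 5 FPKM, upper-quartile scaling, median centring, and the most expressed transcript in place of the sum. A minimum mean of 5 FPKM keeps fewer genes. With it, the members past 0.5 went from 3 to 1 and the other listed genes past 0.5 from 10 to 6. The member transcripts past 1 went from 1 to 0. DHX58, OAS1 and transcript 3 of OAS2 have means of 4.43, 1.97 and 1.33 FPKM. They were removed by this filter, with their ratios unchanged. Of all genes, 3.26% were above 0.5 between 5 and 20 FPKM, 1.38% between 20 and 100 FPKM and 2.17% from 100 FPKM. The member transcripts past 1 were 0 with a pseudocount of 1 and 4 with no filter. Of 36 ratios of single members over 4 settings, 33 moved by less than 0.1 and 0 changed sign. The others were DHX58 at 0.50 and OAS1 at 0.35 with a pseudocount of 1, and MAVS at -0.20 for its most expressed transcript, and the cause was not tested. Most of the 36 could not move that far. Upper-quartile scaling and median centring shift every gene by 1 common amount, 0.029 and 0.0034 in size. The most expressed transcript equals the sum for a member with 1 expressed transcript. Leaving out each member in turn put the members' median between 0.23 and 0.31. No paired analysis was possible because each condition is 1 pooled value, and for the same reason no replicate could be left out. Genes of a few FPKM rest on the least sequence, and the depth behind them is unknown.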

Other observations

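The deposited table gives a status for each transcript's comparison, and the rows of DDX58 and IFIH1 are listed as not tested. So are all 3 rows of OAS1, including its expressed transcript, and rows of MAVS, EIF2AK2 and OAS2 with means below 1 FPKM. Among the 9798 rows with a mean of at least 5 FPKM, 390 (3.98%) have that status, as do 2 of the 5 member rows at that level. The reason is not given in the sources used here.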
